A study of Mus musculus with 8 samples.

Results

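The mTOR kinase works in 2 protein complexes, and the report concerns the transcripts of 10 genes that encode these complexes and the regulators directly above them: *Mtor*, *Rptor*, *Rictor*, *Mlst8*, *Akt1s1*, *Deptor*, *Tsc1*, *Tsc2*, *Rheb* and *Ddit4*. The genes were selected by symbol, with no threshold on their values, and all 10 were found among the 22520 genes and assembled transcripts with an expression value. Splenic mouse CD8+ T cells were activated with antibodies against CD3 and CD28 together with IL-2 and stimulated persistently through the TCR until day 6, a culture model of exhaustion. From day 3 the cells received either 40 µM DADA (diisopropylamine dichloroacetate, an inhibitor of the pyruvate dehydrogenase kinases) or the solvent DMSO, and RNA was taken on day 6. Bulk RNA-seq was run on 4 libraries of each group. The cells were from wild-type C57BL/6J mice, so stimulation, strain and culture time were shared and DADA was the only difference in the protocol, although the genotype field of the labels reads control and model without naming a gene. The labels call the 4 libraries of a group biological replicates, but nothing states that they came from separate animals, so the p-values measure the spread between these libraries, which may be technical.

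mTORC1 contains mTOR, the scaffold raptor (*Rptor*) and the inhibitory subunit PRAS40 (*Akt1s1*), and it drives protein synthesis and restrains autophagy when amino acids and growth factors are present. mTORC2 contains mTOR and rictor (*Rictor*) and phosphorylates AKT and related kinases, while mLST8 (*Mlst8*) and the inhibitor DEPTOR (*Deptor*) occur in both. The small GTPase RHEB switches mTORC1 on at the lysosome, the TSC1-TSC2 complex turns RHEB off, and REDD1, the product of the stress-induced gene *Ddit4*, inhibits mTORC1 through TSC. In T cells, mTOR activity follows TCR, costimulatory and cytokine signals and shapes effector and memory differentiation.

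The values were FPKM, in which fragment numbers are divided by transcript length and by library depth, so that levels can be set side by side between genes. Changes were fitted with limma on log2(FPKM + 1) over the 10666 genes with a value of 1 FPKM or more in 4 or more of the 8 libraries, and a gene was called at an adjusted p-value (Benjamini-Hochberg over all genes tested) under 0.05. An estimate from the lowest values in the table put the depth at 13500000 to 16200000 fragments per DMSO library and 14800000 to 18300000 per DADA library. The 5 CD8 T cell markers summed to between 674 and 680 FPKM with DMSO and between 776 and 805 with DADA, and all 5 were called higher, so the whole marker list moved with the group. Markers of other cell types stayed at or below 0.411 FPKM in any library, with *Csf1r* and *Hbb-bs* among those at 0 throughout. The sum of the NK cell markers *Ncr1* and *Klrb1c* lay between 0 and 0.0959 FPKM with DMSO and between 0.144 and 0.336 with DADA. CD4, B cell, myeloid and erythroid marker sums overlapped between the groups, although *Foxp3*, *Itgam* and *Klrb1c* were each called higher with DADA, at no more than 0.268 FPKM, in the fit without a filter. In bulk RNA a change in the number of cells of a type cannot be told apart from a change in RNA per cell, and the part of either in the results was not tested.

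Of the 10 genes, 9 passed the filter, and 6 of them were called, 5 higher and 1 lower with DADA. Among all genes tested 66.2% were called, 30.9% higher and 35.3% lower, so a call by itself did not set these genes apart. The median log2 fold change over the 9 genes was 0.21, against -0.02 over all genes tested. *Ddit4* rose most, to 2.78 times its DMSO level, followed by *Rictor* (1.31 times) and *Rheb* (1.27 times), whereas *Akt1s1* and *Tsc2* rose by less and *Mtor* fell slightly. The groups were apart in 6 of the 10 genes, with every DADA library above every DMSO library in 5 and below in 1. Over all genes tested the groups were apart in 60.6%, with DADA above in 28.4% and below in 32.2%. For each of these 6 genes an exact two-sided permutation test over the 70 assignments of libraries gave p = 0.0286, the smallest value this design allows. Any gene whose groups are apart takes this value, so it adds nothing to the separation.

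**Figure D1:**
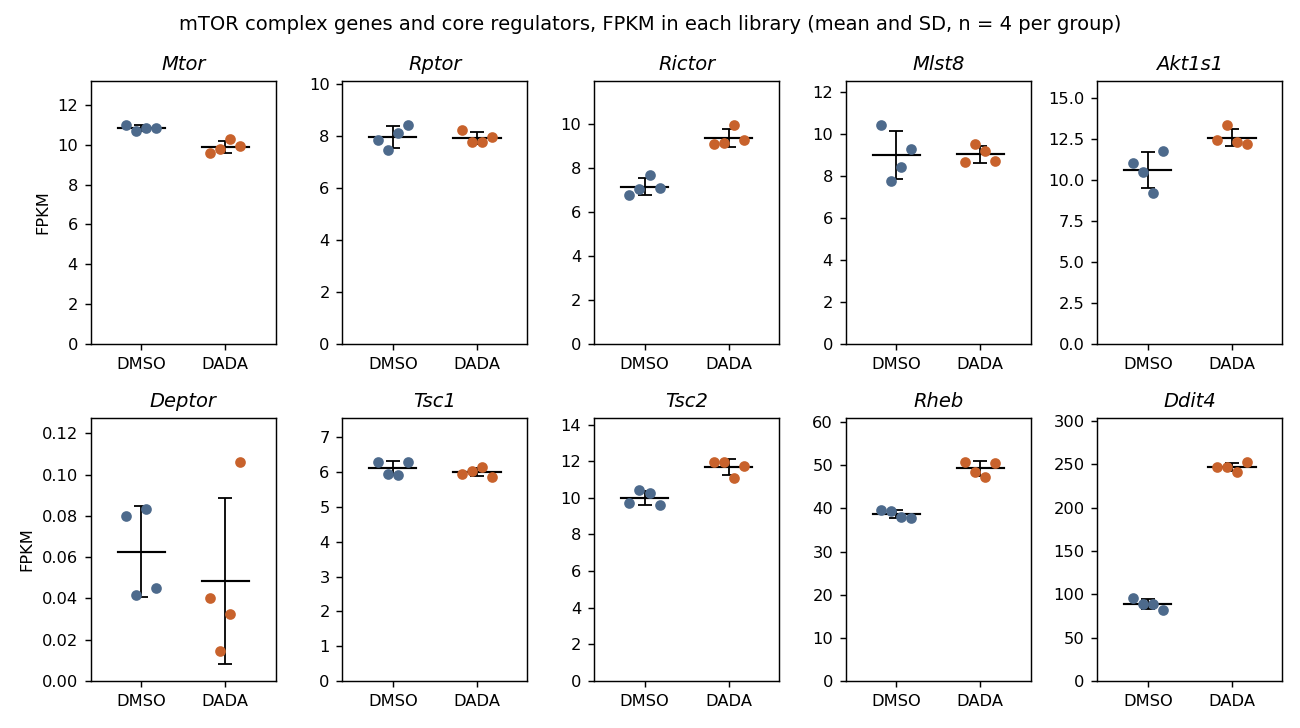
Expression of the 10 genes in each library, with FPKM on the vertical axis from 0 in each panel and 4 points per group (DMSO in blue, DADA in orange); long horizontal lines are means and bars are SD. The DADA points lie above all DMSO points for *Rictor*, *Akt1s1*, *Tsc2*, *Rheb* and *Ddit4*, below them for *Mtor*, and among them for the other genes.

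*Ddit4* (ENSMUSG00000020108) encodes REDD1, which is transcribed in response to hypoxia, energy and nutrient stress, DNA damage and glucocorticoids. Its FPKM was 95.5, 89.2, 89.0 and 81.5 in the DMSO libraries and 247, 247, 241 and 253 in the DADA libraries. The lowest DADA value was thus far above the highest DMSO value, and the 4 DADA libraries lay close to each other. The mean rose from 88.8 ± 5.75 to 247 ± 4.88 FPKM (SD, n = 4 each), and the log2 fold change was 1.47 (SE 0.0419, 95% interval 1.37 to 1.56, limma adjusted p = 1.12e-09). Only 1.78% of the genes tested had a larger absolute change. *Ddit4* was already above 92.6% of tested genes in DMSO and reached 97.9% with DADA, and it was the most abundant of the 10 transcripts in every library.

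The promoters of the 10 genes were examined for short motifs of factors linked to *Ddit4*, the strongest riser. RefSeq start sites on GRCm38.p6 were found for 9 of the 10, and each window held 250 bases before and 50 bases after the start. Hypoxia-inducible factors bind the core letters ACGTG or GCGTG, and only ACGTG was searched over all windows, on both strands. ACGTG occurred in *Ddit4*, *Rheb* and *Rptor* and in none of the other 6 windows. It occurs in 19.6% of all 32851 promoter windows of the same length. In *Ddit4* it starts at position -187 from the start site. In *Rheb* the matches on the 2 strands overlap to form a single CACGTG (the E-box read by MYC and USF factors, found in 7.15% of windows) at position -96, and in *Rptor* a single match starts at position -34. The windows are shown because they set the strongest riser and a moderate riser beside a gene that did not pass the test. Capitals mark ACGTG on either strand only. GCGTG is left in lower case and can be read in *Ddit4* and *Rptor*, but on neither strand of *Rheb*. The windows lie at chr10:59951721-59952020 (minus strand) for *Ddit4*, chr5:24842312-24842611 (minus strand) for *Rheb* and chr11:119602655-119602954 (plus strand) for *Rptor*, and are written in the direction of transcription.
Ddit4: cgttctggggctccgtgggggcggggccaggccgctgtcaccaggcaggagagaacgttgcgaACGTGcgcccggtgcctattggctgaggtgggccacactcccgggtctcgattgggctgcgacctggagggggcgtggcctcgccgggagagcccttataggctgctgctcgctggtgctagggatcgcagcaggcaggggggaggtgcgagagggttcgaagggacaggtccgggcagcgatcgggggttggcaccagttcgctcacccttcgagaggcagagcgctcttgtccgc
Rheb: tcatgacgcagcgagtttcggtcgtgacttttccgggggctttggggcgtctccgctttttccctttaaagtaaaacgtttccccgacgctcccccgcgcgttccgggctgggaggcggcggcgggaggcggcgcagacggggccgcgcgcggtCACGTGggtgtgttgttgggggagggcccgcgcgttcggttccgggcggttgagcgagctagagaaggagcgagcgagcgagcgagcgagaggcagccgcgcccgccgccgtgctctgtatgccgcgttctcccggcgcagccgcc
Rptor: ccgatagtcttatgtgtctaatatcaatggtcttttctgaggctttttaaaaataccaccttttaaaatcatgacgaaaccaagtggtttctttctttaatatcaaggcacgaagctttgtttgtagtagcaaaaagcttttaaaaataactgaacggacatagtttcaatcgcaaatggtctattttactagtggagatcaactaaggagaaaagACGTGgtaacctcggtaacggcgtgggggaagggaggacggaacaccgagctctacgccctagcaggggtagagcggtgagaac

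The risers *Rictor*, *Akt1s1* and *Tsc2* had no ACGTG in this window, as had *Mtor*, which fell, and *Mlst8* and *Tsc1*, which did not pass the test. TGATGNAAN, the composite element read by ATF4 with C/EBP partners, was in none of the 9 windows and in 3.95% of all windows. GCGTG was not searched over all windows, so its share there is not known. Read from the sequences, GCGTG or its reverse complement CACGC is in *Rictor*, *Akt1s1*, *Tsc2* and *Tsc1*, and in neither *Mtor* nor *Mlst8*. The windows without ACGTG are therefore not all without a core of this kind. A match, or its absence, is a description of these letters and says nothing about binding in these cells.

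Transcription factors known to induce *Ddit4* did not move in 1 direction. *Hif1a*, the hypoxia-inducible factor subunit that is regulated mainly at the protein level, rose from 210 ± 5.91 to 293 ± 4.98 FPKM (fold 1.39), and *Cebpb* (1.29) and the glucocorticoid receptor gene *Nr3c1* (1.17) also rose. *Atf4*, the effector of the integrated stress response, fell from 370 ± 3.52 to 329 ± 9.42 FPKM, and *Trp53*, which encodes p53, fell from 88.0 ± 1.85 to 78.9 ± 1.28 FPKM. For all of these factors only transcripts were measured, and neither the amount nor the activity of the proteins is known from these data. *Epas1* was under the filter, at means of 0.361 and 0.625 FPKM, and in the fit without a filter it was called higher (limma adjusted p = 0.0447) although its groups overlapped, a call that was lost in 6 of the 8 fits without a single library and under 3 other settings.

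The 5 genes whose log2(FPKM + 1) profile was most like that of *Ddit4* over the 8 libraries, out of 8187 genes averaging 5 FPKM or more, were *Ifi214*, *Isg20*, *Map2k1*, *Eno1b* and *Tapbp*, with Pearson's r from 0.9991 to 0.9995. *Eno1b* is a near-identical copy of *Eno1*, so its reads may be shared. All 5 were higher in every DADA library, from 1.96-fold for *Map2k1* to 18.3-fold for *Ifi214*. The points share the 2 treatment groups, so likeness here mostly follows the group difference, and 1146 genes had r above 0.95.

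*Tsc1* and *Tsc2* encode the scaffold and the GTPase-activating subunit of the TSC complex that receives the REDD1 signal. *Tsc2* (ENSMUSG00000002496) measured 9.70, 10.4, 10.3 and 9.63 FPKM with DMSO and 12.0, 12.0, 11.1 and 11.7 FPKM with DADA. No DADA value was as low as the highest DMSO value. The log2 fold change was 0.21 (SE 0.0403, limma adjusted p = 0.00122), or 1.17-fold between means of 10.0 ± 0.394 and 11.7 ± 0.425 FPKM (SD, n = 4 each). About 7.2% of the exon length of *Tsc2* lies opposite exons of *Pkd1* in the GENCODE M21 annotation. The mean of *Pkd1* was lower with DADA (4.32 and 3.22 FPKM for DMSO and DADA), and whether strand was used in counting was not given clearly in the sources used here.

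*Tsc1* (ENSMUSG00000026812) measured 6.30, 5.96, 5.91 and 6.30 FPKM with DMSO and 5.95, 6.02, 6.14 and 5.87 FPKM with DADA. The groups overlapped, the log2 fold change was -0.02 (95% interval -0.114 to 0.0642) and the limma adjusted p was 0.600. The interval therefore leaves room for small changes in either direction. With *Tsc2* higher and *Tsc1* near its DMSO level, the ratio of *Tsc1* to *Tsc2* FPKM within a library was 0.613 ± 0.0451 with DMSO and 0.514 ± 0.0273 with DADA (SD, n = 4 each). Ratios ranged from 0.572 to 0.654 with DMSO and from 0.497 to 0.554 with DADA, without overlap, and no test was run on them.

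*Rheb* (ENSMUSG00000028945), the GTPase that activates mTORC1 and is switched off by TSC, measured 39.6, 39.3, 38.0 and 37.9 FPKM with DMSO. In the DADA libraries it measured 50.9, 48.5, 47.3 and 50.4 FPKM, all above the DMSO values. The log2 fold change was 0.34 (SE 0.0303, 95% interval 0.273 to 0.408, limma adjusted p = 4.56e-06), with means of 38.7 ± 0.903 (DMSO) and 49.3 ± 1.66 FPKM (DADA). *Rheb* was the second most abundant of the 10 transcripts in both groups, and the activator of mTORC1 thus rose beside *Ddit4* and *Tsc2*, whose products oppose it. The paralog *Rhebl1* went the other way, falling from 8.73 ± 0.636 to 7.34 ± 0.624 FPKM (limma adjusted p = 0.0121).

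*Mtor* (ENSMUSG00000028991), the kinase itself, measured 11.0, 10.7, 10.8 and 10.9 FPKM with DMSO and 9.56, 9.78, 10.3 and 9.91 FPKM with DADA. It was the only one of the 10 genes called lower. The mean fell from 10.8 ± 0.134 to 9.88 ± 0.302 FPKM (SD, n = 4 each), with a log2 fold change of -0.12 (SE 0.0340, 95% interval -0.197 to -0.0450, limma adjusted p = 0.00990). In the genes tested, 68.9% had a larger absolute change. When each library was rescaled to the same FPKM total, the log2 fold change was -0.09 and the adjusted p was 0.0503, so the call was lost.

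*Mlst8* (ENSMUSG00000024142), whose product binds the kinase domain in both complexes, measured 10.4, 7.78, 8.43 and 9.29 FPKM with DMSO and 8.68, 9.53, 9.17 and 8.70 FPKM with DADA. The DMSO libraries spread more widely than the DADA libraries and enclosed all of them. The means were 8.98 ± 1.14 and 9.02 ± 0.410 FPKM, with a log2 fold change of 0.01 (95% interval -0.156 to 0.180, limma adjusted p = 0.895). Of its exon length, 22.48% lies opposite *Bricd5*, which was close to 0 in both groups.

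*Deptor* (ENSMUSG00000022419), the inhibitory subunit of both complexes, was the only one under the filter. Its FPKM was 0.0800, 0.0418, 0.0834 and 0.0452 with DMSO and 0.0403, 0.0145, 0.0324 and 0.106 with DADA. At the estimated depth, and for its longest annotated transcript, this corresponds to between 2.27 and 16.6 fragments per library. The groups overlapped, and the exact permutation p was 0.514. In the fit without a filter, over 16167 genes of which 48.7% were called, the limma adjusted p was 0.607. A difference was not detectable at this depth.

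**Figure D2:**
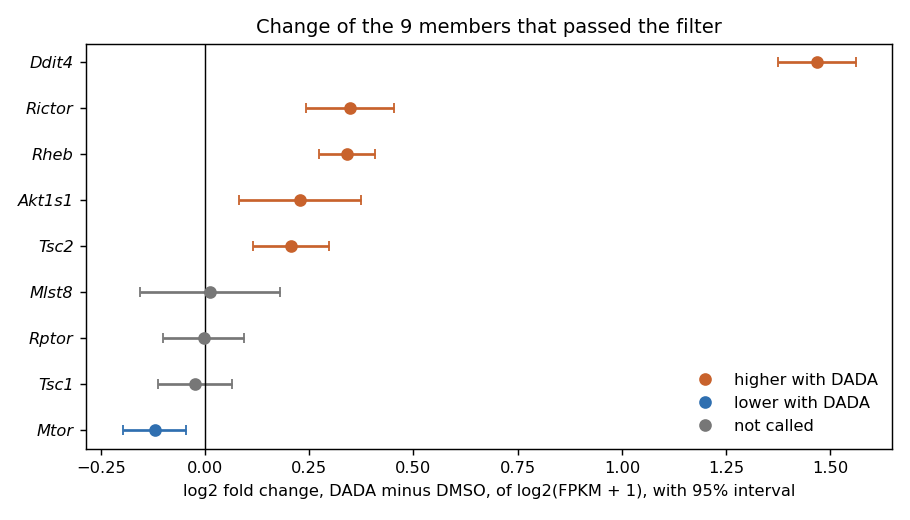
Log2 fold change of the 9 genes that passed the filter, DADA minus DMSO on the log2(FPKM + 1) scale (horizontal axis), with 95% intervals from limma; orange was called higher, blue lower and grey not called. *Ddit4* stands at 1.47, *Rictor*, *Rheb*, *Akt1s1* and *Tsc2* lie between 0.21 and 0.35, the intervals of *Mlst8*, *Rptor* and *Tsc1* cross 0, and *Mtor* is at -0.12.

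Of the subunits that distinguish the complexes, *Rptor* did not pass the test and *Rictor* rose. *Rptor* (ENSMUSG00000025583), which recruits substrates to mTORC1, measured 7.83, 7.47, 8.12 and 8.43 FPKM with DMSO and 8.24, 7.77, 7.77 and 7.97 FPKM with DADA. All DADA values lay within the DMSO range. The log2 fold change was -0.0033 (95% interval -0.101 to 0.0944, limma adjusted p = 0.95), and 99.2% of tested genes had a larger absolute change.

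*Rictor* (ENSMUSG00000050310), the defining subunit of mTORC2, measured 6.80, 7.05, 7.70 and 7.08 FPKM with DMSO. With DADA it measured 9.09, 9.14, 9.97 and 9.30 FPKM, all above the DMSO libraries. The mean rose from 7.16 ± 0.383 to 9.38 ± 0.407 FPKM (SD, n = 4 each), with a log2 fold change of 0.35 (SE 0.0466, 95% interval 0.243 to 0.452, limma adjusted p = 9.21e-05). The ratio of *Rptor* to *Rictor* within a library was 1.11 ± 0.0681 with DMSO and 0.848 ± 0.0525 with DADA. *Rptor* had the higher FPKM in all 4 DMSO libraries, with ratios of 1.05 to 1.19, and *Rictor* in all 4 DADA libraries, with ratios of 0.779 to 0.906. With ratios this near 1, which gene is higher depends on the transcript lengths used for FPKM. No test was run on the ratios.

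**Figure D3:**
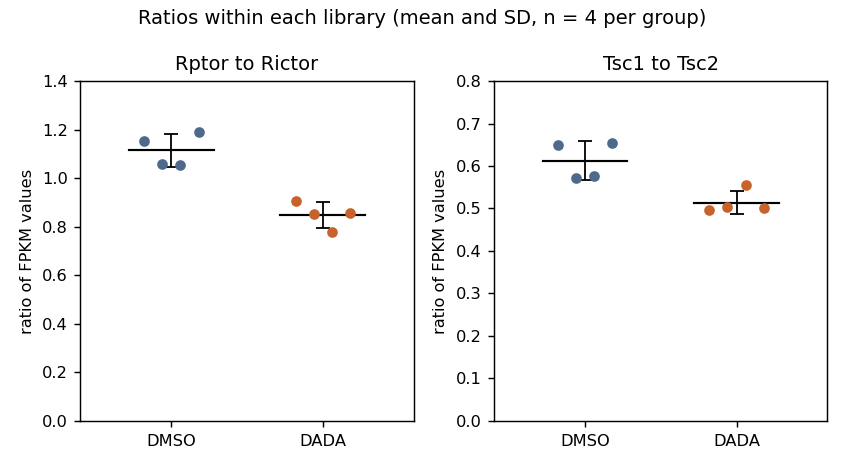
Ratio of the FPKM of *Rptor* to that of *Rictor* (left) and of *Tsc1* to *Tsc2* (right) within each library, 4 points per group, with the mean and SD and vertical axes from 0. Both ratios are lower in all 4 DADA libraries than in any DMSO library, and *Rptor* to *Rictor* passes from above 1 to below 1.

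*Akt1s1* (ENSMUSG00000011096) encodes PRAS40, which inhibits mTORC1 until AKT and mTORC1 phosphorylate it. Its FPKM was 11.1, 10.5, 9.20 and 11.8 with DMSO and 12.4, 13.4, 12.3 and 12.2 with DADA. The lowest DADA library lay only slightly above the highest DMSO library. The means were 10.6 ± 1.10 and 12.6 ± 0.525 FPKM (SD, n = 4 each), and the log2 fold change was 0.23 (SE 0.0656, limma adjusted p = 0.0112). Leaving out single libraries moved it between 0.166 (without DMSO replicate 3) and 0.276, and it stayed called in each. *Akt1s1* shares 89 bases, 2.90% of its exon length, with the opposite strand gene *Tbc1d17*, whose mean was 4.26 FPKM with DMSO and 7.49 with DADA, and the part of these reads in the result was not tested.

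In DMSO the order of mean levels was *Ddit4*, *Rheb*, *Mtor*, *Akt1s1*, *Tsc2*, *Mlst8*, *Rptor*, *Rictor*, *Tsc1* and *Deptor*. *Ddit4* and *Rheb* stood apart from their neighbours, *Mtor* to *Rictor* formed a run in which each gene's range overlapped the next, and *Tsc1* and *Deptor* were each lower without overlap. With DADA, *Akt1s1* and *Tsc2* moved ahead of *Mtor* and *Rictor* moved ahead of *Mlst8* and *Rptor*. *Mtor*, *Rictor* and *Mlst8* then overlapped in sequence, and the remaining neighbours did not. The span from *Tsc1* to *Akt1s1* with DADA was 6.00 to 12.6 FPKM in the means, whereas *Ddit4* was at 247 FPKM.

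The genes around the complexes were described by 8 further lists. Of 93 genes 87 passed the filter, and 33 were higher, 29 lower and 25 not called, 71.3% called against 66.2% of all genes tested, with a median log2 fold change of 0.04. Among further subunits, assembly factors and paralogs, 2 of 8 rose and 5 fell: *Prr5* (fold 2.12, from 1.13 ± 0.101 to 2.40 ± 0.383 FPKM) and *Prr5l* (fold 1.3, not called with quantile normalization), which encode the Protor subunits of mTORC2, rose with *Rictor*, whereas *Mapkap1*, which encodes the mTORC2 subunit SIN1, fell (fold 0.845), as did the assembly factor *Telo2* (fold 0.837). The PI3K and AKT list held genes of this input together with its inhibitors, so a rise in it is not by itself more input. In it 8 of 16 rose, led by *Phlpp1* (fold 1.44), *Pik3r5* and *Pik3ip1*, and 2 fell, *Inpp4b* and *Pik3r2*. In the LKB1 and AMPK list 2 of 10 rose (*Prkab2* and *Prkaa1*) and 4 fell, led by the kinase gene *Camkk2* (fold 0.617), with *Stradb* and *Cab39* lower as well.

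The amino acid arm moved in both directions, and its counts stand beside 30.9% higher and 35.3% lower among all genes tested. Among nutrient sensors 4 of 9 rose, led by *Bmt2* (SAMTOR, fold 1.67), *Castor2* (1.65) and the arginine sensor gene *Castor1* (1.37). The 3 that fell were the sestrin genes *Sesn1* (0.754), *Sesn2* (0.779) and *Sesn3* (0.926). In GATOR and KICSTOR 5 of 12 rose and 4 fell, with the GATOR1 partners apart: *Nprl2* rose (fold 1.3, with *Seh1l* and *Kptn*) and *Nprl3* fell (fold 0.658, with *Sec13*). For the Rag GTPases and Ragulator 4 of 10 rose, *Slc38a9* most (fold 1.81, with *Lamtor1* and with *Rragd*, whose log2 fold change of 0.23 went to 0.08 and lost its call with quantile normalization), and 2 fell, *Rragb* (0.602) and *Lamtor2*. The calls of *Sesn3*, *Kptn*, *Lamtor1* and *Lamtor2*, and that of *Pik3r2* above, were lost when certain single libraries were left out.

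Downstream, 3 of 15 genes for proteins phosphorylated by mTORC1 or by kinases under it rose, *Lpin1* (fold 1.62), *Maf1* (1.42) and *Atg13* (1.16), and 8 fell, led by *Eif4ebp2* (0.778), *Pdcd4* (0.808) and *Rps6* (0.837, with reads that processed copies may share), with a median log2 fold change of -0.13 against -0.02 over all genes tested. The log2 fold change of *Rps6* went from -0.26 to -0.06 with quantile normalization, and the call was lost. In the mTORC2 arm 5 of 7 rose and 1 fell, with a median of 0.22, where 30.9% of all genes tested were higher and 35.3% lower: *Ndrg1*, which encodes an SGK1 substrate and is also a hypoxia-responsive gene, rose from 21.9 ± 0.899 to 122 ± 1.12 FPKM (fold 5.56), and the protein kinase C genes *Prkcq* (1.56) and *Prkca* (1.26) rose, while *Sgk3* fell (0.850). These are transcript levels, and neither phosphorylation nor the activity of either complex was measured.

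**Figure D4:**
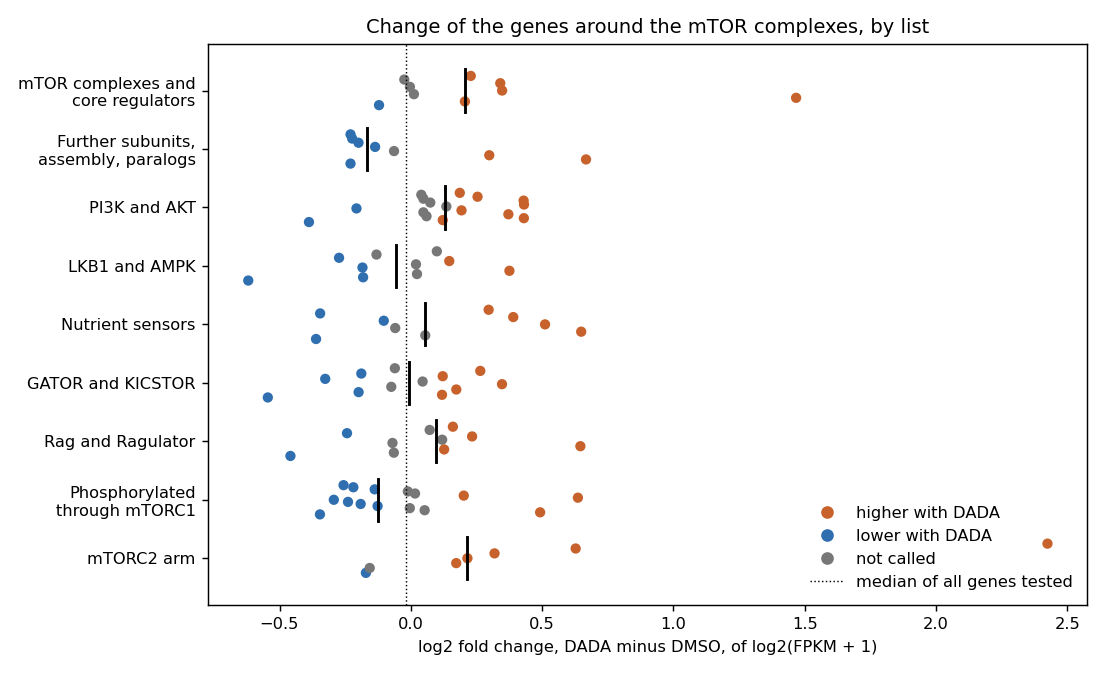
Log2 fold change (DADA minus DMSO, log2(FPKM + 1)) of the genes in each list that passed the filter; each point is a gene, coloured orange for higher, blue for lower and grey for not called, with black bars for the list medians and a dotted line for the median of all genes tested. *Ddit4* at 1.47 and *Ndrg1* at 2.42 lie to the right of all other genes shown, and every further list holds genes on both sides of 0.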

How the data were processed

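The deposited values are FPKM, as the authors computed them for each gene in 8 bulk RNA-seq libraries of mouse CD8+ T cells, 4 with DMSO and 4 with DADA, made from paired reads. The submitters' processing notes name CASAVA 1.8.2, FastQC 0.11.9, HISAT2 2.0.5, StringTie 1.3.3, Picard 1.41 and SAMtools 0.1.18 and the builds GRCm39 and GRCh38, without their roles. Whether counting used strand is not given clearly in the sources used here. Groups came from the library titles.

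The FPKM values were analysed as log2(FPKM + 1) with limma 3.58.1 in R 4.3.3 (lmFit with 1 term for DADA, eBayes with trend, Benjamini-Hochberg over 10666 genes with at least 1 FPKM in at least 4 libraries), and fold changes on this scale understate those of low genes. The folds given as such are ratios of group means of FPKM. *Deptor*, under the filter, took its p from the same fit without the filter. Single values were tested with two-sided exact permutations.

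FPKM holds no counts. The depth was estimated from the commonest low value of 4290 genes with a single transcript in GENCODE M21, and since it is only estimated, no test on counts was made. Exon overlaps used GENCODE M21, and promoters came from RefSeq on GRCm38.p6. Since the notes name GRCm39, no other coordinates are given.

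The genes and lists were chosen with earlier results of these data known. Named were all 10 genes, up to 3 called genes with the largest log2 fold change in each direction of each further list, every listed inducer of *Ddit4*, and the 5 genes most like *Ddit4*, except that a few genes are counted in their lists but not reported by name. Genes named for overlapping exons came from the annotation. The alternatives were a pseudocount of 0.1, no filter, a mean of at least 5 FPKM, quantile normalization, median-ratio scaling, equal totals per library (TPM), a block for the replicate number, eBayes with no trend, and leaving out each library. Figures were drawn with matplotlib 3.10.9 in Python 3.11.15.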

Additional observations from a re-analysis of the deposited data

Results flagged for a closer look

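In 12 of 120 groups of 4 libraries, 1 library lay so far from the other 3 that its gap to the nearest, as a share of the whole range, passed the 95% point of Dixon's test, which chance passes in about 1 in 20 groups. Among the mTOR genes, *Akt1s1* was at 13.4 FPKM in DADA replicate 2 and at 12.2 to 12.4 in the other DADA libraries (gap share 0.832), and the ratio of *Tsc1* to *Tsc2* was 0.554 in DADA replicate 3 and 0.497 to 0.503 in the others (0.896). *Ndrg1* stood out in both groups, at 20.6 FPKM in DMSO replicate 4 against 22.2 to 22.4 (0.883) and at 120.2 in DADA replicate 4 against 122 to 123 (0.836).

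In the DMSO group, replicate 1 was high for *Rhebl1* (9.67 against 8.28 to 8.48 FPKM, gap share 0.857), *Slc38a9* (2.69 against 2.08 to 2.16, 0.877) and *Eif4ebp2* (26.2 against 25.1 to 25.3, 0.853). Replicate 2 was high for *Pik3r5* (16.3 against 15.7 to 15.8, 0.942) and low for *Atg13* (10.8 against 11.8 to 11.9, 0.866). Replicate 3 was low for *Prkca* (14.2 against 15.1 to 15.2, 0.961), and replicate 4 for *Nprl3* (10.6 against 12.0 to 12.2, 0.841). With DADA, *Inpp4b* was at 28.6 FPKM in replicate 3 and at 23.6 to 24.3 in the others (0.852). All of these genes kept their direction without the library in question.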

How the results depend on the processing

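Under 16 alternatives, 8 of them leaving out 1 library each, *Ddit4* (log2 fold change 1.43 to 1.5), *Rictor* (0.307 to 0.386), *Rheb* (0.325 to 0.375), *Tsc2* (0.180 to 0.235) and *Akt1s1* (0.166 to 0.276) kept their direction and call. *Mtor* lost its call with TPM (-0.0918, limma adjusted p = 0.0503) and kept it in the other 15. For genes that never passed the test the sign changed: *Rptor* was 0.0251 with TPM and 0.0153 with median-ratio scaling, *Tsc1* was 0.00273 with TPM, and *Mlst8* was -0.0313 with quantile normalization. Without single libraries *Rptor* ranged from -0.0304 to 0.0216 and *Mlst8* from -0.0474 to 0.0791. The cause was not tested. No setting moved the median of all genes by more than 0.0300. Of the further genes none changed sign, and 29 values lost their call. Without single libraries these were *Kptn* (0.137 to 0.165, without DMSO replicate 2 or 4 or DADA replicate 1 or 2), *Sesn3* (-0.103 to -0.0842, without DMSO replicate 3 or 4 or DADA replicate 2 or 3), *Lamtor1* (0.139 and 0.158, without DADA replicate 2 or 3), *Lamtor2* (-0.214, without DMSO replicate 3), *Pik3r2* (-0.166 and -0.170, without DMSO replicate 2 or DADA replicate 4) and *Epas1* (0.200 to 0.260, without DMSO replicate 1, 2 or 4 or any of DADA replicates 1 to 3). With quantile normalization they were *Prr5l* (0.189), *Rragd* (0.0828), *Rps6* (-0.0565), *Kptn* (0.128) and *Epas1* (0.124). The others were *Sesn3* with TPM (-0.0729) and median-ratio scaling (-0.0833), *Lamtor1* with no filter (0.160), and *Epas1* with a pseudocount of 0.1 (0.651) and with eBayes without the trend (0.253). *Deptor* had no value with a mean of at least 5 FPKM. Depth limits *Deptor*, with few fragments per library.

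The replicate number as a block left 6 of the mTOR genes and 58 further genes called, and 6995 genes in all. Deviations of same-numbered libraries correlated between -0.120 and 0.0953, and those of differently numbered libraries between -0.267 and 0.134. With so few libraries these values cannot show or exclude a pairing, which was not stated in the sources used here.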
